A study of Danio rerio with 8 samples.

Results

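The respiratory chain and ATP synthase genes are the nuclear genes for the subunits of mitochondrial complexes I to V and for some of the factors that assemble them. They were taken as the probe sets with exactly 1 platform gene symbol starting with nduf, sdha, sdhb, sdhc, sdhd, uqcr, cox4 to cox8 or atp5, and each gene was followed through its brightest probe set, judged by the mean over the 8 arrays. The rule found 92 probe sets for 85 of the 8793 genes with a single symbol on the array. By symbol, 33 genes belong to complex I, 4 to complex II, 7 to complex III, 14 to complex IV and 18 to complex V. The other 9 are assembly factors, with symbols starting ndufaf or sdhaf. Of the 85 genes, 80 passed the filter on dim probe sets (mean log2 signal at or above 5.58) and were tested, and all 80 lay above the array background (log2 5.10, from negative control probe sets) on all 8 arrays. The 5 that did not pass were ndufa4b, cox4i1l, cox4i2, cox6b1 and the assembly factor sdhaf3, and none of them lay above that background on more than 2 arrays.

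Whole zebrafish embryos were compared at 6 hours post fertilization (hpf), when gastrulation starts. Embryos of the 1-cell or 2-cell stage had received 3 nl of either a prmt6 morpholino (MO) or the control morpholino that the labels call prmt6 cMO, each at 0.3 mM. A morpholino is an antisense oligomer that binds a chosen RNA, here that of protein arginine methyltransferase 6. The study classed the MO embryos as severe, mild or normal, by criteria the labels do not give, and the arrays are 3 of cMO embryos (called controls here), 3 of the severe subtype, 1 of the mild and 1 of the normal subtype. The labels call the control and severe arrays numbered biological replicates, but give no strain, no number of embryos per array and no clutch. P-values therefore measure the spread between samples so labelled, and whether these came from separate clutches is not known.

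The respiratory chain sits in the inner mitochondrial membrane. Complex I takes electrons from NADH and complex II from succinate, both pass them to ubiquinone, complex III hands them on through cytochrome c, and complex IV delivers them to oxygen. Complexes I, III and IV pump protons, and complex V, the ATP synthase, lets the protons flow back to make ATP. Most subunits come from nuclear genes and a few from mitochondrial DNA. The early zebrafish embryo inherits its mitochondria and many transcripts for their proteins from the egg. The roles given below are known mainly from the human and bovine enzymes.

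Signals are log2 values from MAS5, which scales each array to 1 common mean, and differences are on that log2 scale. Array medians lay between 6.48 and 6.81. The prmt6 transcript itself was 1.57 higher in severe embryos, and since a morpholino need not lower its target RNA, this checks neither the knockdown nor the labels. Of 11 genes expected in an embryo of this stage, all 11 lay above background in all controls and 9 in all severe arrays. Their levels differed, with a log2 of the summed linear signal of 15.55 to 15.71 in controls and 14.59 to 14.89 in severe embryos. The gene eve1 read 10.2 to 11.0 in controls and 3.9 to 5.6 in severe embryos, while sox19b was higher on every severe array than on any control. Of 6 blood, muscle, heart and neuron genes for later stages, 2 lay above background in all controls. Scaling the arrays on their hybridisation controls instead, which are bacterial and phage transcripts added in known amounts, moved the median difference between severe and control over all probe sets from 0.11 to -0.17, so the changes below are relative to the array-wide signal.

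In severe embryos the respiratory chain genes did not move as a block. Of the 80 tested, 19 fell and 11 rose, and the median difference over all 80 was 0.0055, against 0.109 for all 9301 probe sets tested (limma, adjusted p under 0.05). Single arrays set the sign of that median, which was 0.109 without control 3 and -0.111 without severe 3. The falls lay mostly in complexes I and IV, among them the NADH-binding subunit ndufv1 and the small oxidase subunit cox7c. The rises were spread over complexes I, II, III and V and the assembly factors, among them the ATP synthase rotor subunit atp5f1c and the core protein uqcrc1 of complex III. Over all probe sets 38.6% were called, 17.6% lower and 21.0% higher, beside 23.8% and 13.8% of the tested members. Every one of the 19 called falls and 11 called rises had 3 severe arrays beyond all 3 controls. The calls were made on the same arrays, so this adds no support to them. Counting all 80 tested members whether called or not, 24 were lower without overlap and 16 higher, against 23.4% and 29.4% of all probe sets. The count of falls stayed between 15 and 20 when any 1 replicate was left out, while 14.1% to 19.2% of all probe sets were lower. The count of rises was 7 without control 2 and 2 when arrays were scaled on hybridisation controls. With replicates 1 and 2 of both groups only it was 21. The share of all probe sets called higher moved the same way, to 16.7%, 5.10% and 27.7%.

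**Figure D1:**
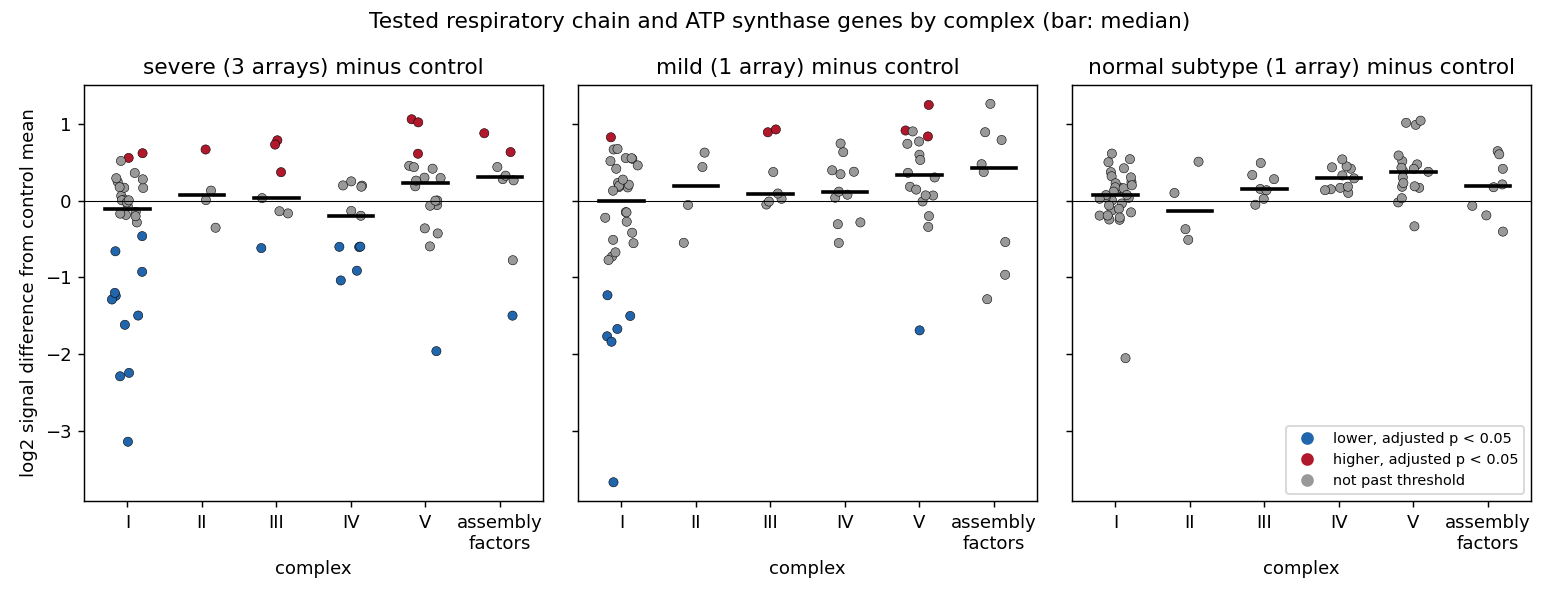
Log2 signal difference from the control mean for each tested gene (points), by complex, in severe, mild and normal-subtype embryos. Bars are medians, blue and red points passed the threshold as lower or higher, and the lowest point in each panel is ndufv1. In severe embryos complex IV has 5 lower and 0 higher genes, while complex V has 1 lower and 3 higher. Over all probe sets 17.6% were lower and 21.0% higher.

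Complex I held both the steepest falls and 2 rises. Of 32 tested genes, 11 fell, 2 rose and 19 did not pass, and the median difference was -0.11, or 0.07 without control 3, -0.05 without severe 1 and -0.21 without severe 3. The called falls ran from -3.14 to -0.46, while the 19 genes that did not pass lay between -0.28 and 0.52. The shares called lower and higher were 34.4% and 6.25%, against 17.6% and 21.0% of all probe sets. Grouping by part of the enzyme, which was done after the values were seen, put 5 falls and 1 rise among 7 tested genes of the arm that oxidises NADH (ndufv1, ndufv2, ndufs1, ndufs4, ndufs6, ndufa2 and ndufa12).

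The gene ndufv1 encodes the subunit that holds the flavin and binds NADH. It read 10.35, 10.56 and 10.49 on the control arrays and 7.59, 7.25 and 7.13 on the severe arrays, 8.41 on the normal array and 6.79 on the mild array. All 5 MO arrays lay below all 3 controls. The mean fell from 10.47 ± 0.11 to 7.32 ± 0.24 (SD, n = 3 each), an 8.85-fold fall (log2 -3.14, SE 0.19, limma adjusted p = 3.26e-05). Its neighbour in the electron path, the iron-sulfur subunit ndufv2, fell by 1.20 (SE 0.23, limma adjusted p = 0.00366), and a second, dimmer ndufv2 probe set read -0.88 and passed too (limma adjusted p = 0.0122).

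The accessory subunit gene ndufs6 read 10.20, 10.15 and 10.74 in controls, 7.83, 8.13 and 8.26 in severe embryos, 10.17 on the normal array and 8.52 on the mild array. The severe and mild arrays were low and the normal array lay at the control level. Its mean fell from 10.36 ± 0.33 to 8.07 ± 0.22 (SD, n = 3 each), or 4.89-fold (log2 -2.29, SE 0.21, limma adjusted p = 0.000117). The accessory subunit gene ndufa5 read 8.68, 8.75 and 9.65 in controls, 6.38, 7.10 and 6.86 in severe embryos, 9.07 on the normal and 7.35 on the mild array. It followed the same order, with the severe and mild arrays below every control. Its fall was 4.74-fold (log2 -2.25, SE 0.31, limma adjusted p = 0.000758).

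The accessory genes ndufa11 and ndufa2, one in the membrane arm and the other in the NADH-oxidising arm, fell as well. The 3 severe arrays of ndufa11 were nearly equal, at 8.60, 8.65 and 8.62, against 9.78, 9.63 and 10.20 in controls, with 9.62 on the normal and 8.36 on the mild array (log2 -1.24, SE 0.18, limma adjusted p = 0.000952). For ndufa2 the severe arrays read 7.66, 7.52 and 7.02 against 8.93, 8.80 and 9.33 in controls, with 8.78 on the normal and 7.25 on the mild array (log2 -1.62, SE 0.25, limma adjusted p = 0.00118). In both genes the mild array was lower than every severe array but 1 or lower than all of them. The remaining called falls were ndufa3 (-1.50), ndufa6 (-1.29), ndufa12 (-0.93), ndufb4 (-0.66) and ndufa10 (-0.46), all accessory subunits.

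Against these falls, ndufs1, the largest iron-sulfur subunit, rose. It read 9.62, 9.72 and 9.37 in controls and 10.18, 10.19 and 10.19 in severe embryos, with 9.59 on the normal and 10.12 on the mild array. The groups did not overlap, and the difference of 0.62 (SE 0.14) amounts to 1.54-fold (limma adjusted p = 0.00854). The accessory gene ndufa9a, which lies near the ubiquinone site, rose by 0.56 (SE 0.15, limma adjusted p = 0.0185). Both rises lost their call when arrays were scaled on hybridisation controls, and that of ndufa9a also with median centring, without control 2 and without control 3. At the other extreme, ndufs5 differed by 0.0054 (95% interval -0.58 to 0.59) and ndufa4a by 0.014 (-0.46 to 0.49). The protein of ndufa4, named for complex I, is now placed with complex IV. None of the other core subunit genes tested, ndufs7 and ndufs8a, passed, at 0.29 and 0.28.

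**Figure D2:**
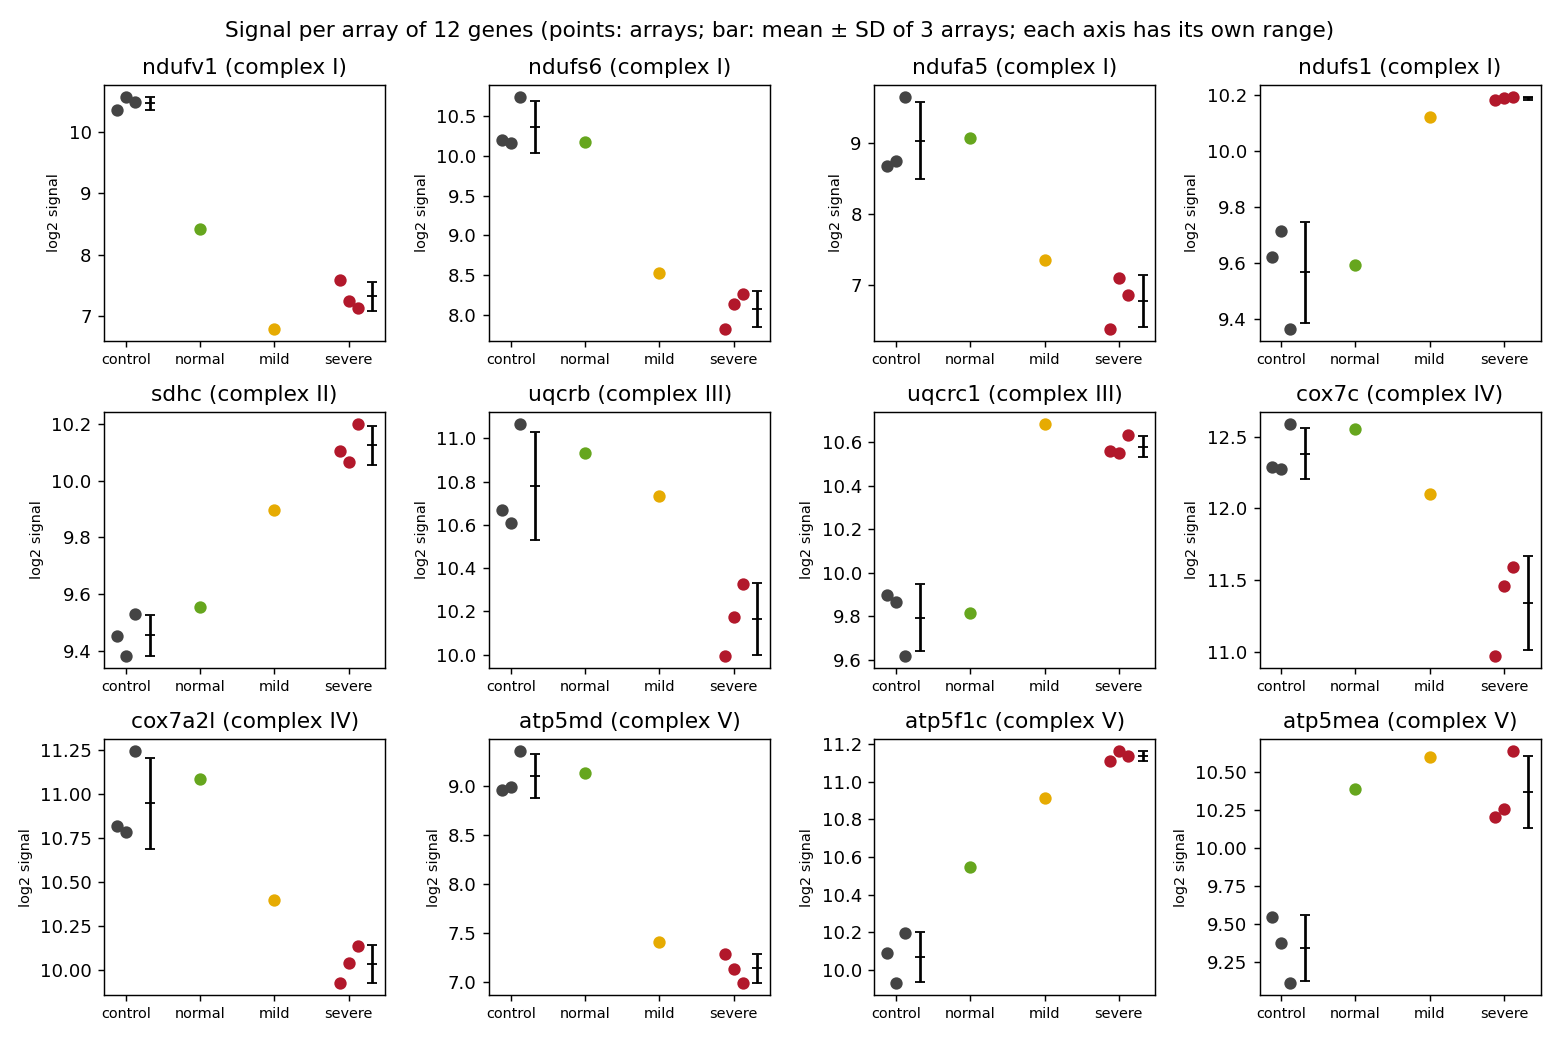
Log2 signal on each array for 12 genes of complexes I to V. Points are arrays, grouped as control, normal, mild and severe, and the bars beside the control and severe points are mean ± SD of 3 arrays. Each panel has its own axis range, so levels cannot be set against each other. The mild array lies with or near the severe arrays for ndufv1, ndufs6, ndufs1, uqcrc1 and atp5md and nearer the controls for uqcrb and cox7c.

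Complex II, whose subunits also serve the citric acid cycle, had 1 rise among 4 tested genes and no fall. That is 25% higher and 0% lower, beside 21.0% and 17.6% of all probe sets. The membrane anchor gene sdhc read 9.45, 9.38 and 9.53 in controls, 10.11, 10.06 and 10.20 in severe embryos, 9.56 on the normal and 9.89 on the mild array. All severe arrays lay above all controls, a difference of 0.67 (SE 0.13, 1.59-fold, limma adjusted p = 0.0042) that was not called under scaling on hybridisation controls (limma adjusted p = 0.228). The other anchor gene, sdhdb, differed by -0.35 (limma adjusted p = 0.122). The flavin subunit gene sdha differed by 0.0078 (95% interval -0.44 to 0.46) and the iron-sulfur subunit gene sdhb by 0.13 (-0.28 to 0.55). For complex II genes, then, only a change of the anchor sdhc passed the test in these arrays.

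In complex III, 3 of the 7 genes found by the symbol rule rose and 1 fell. These are 42.9% and 14.3%, beside 21.0% and 17.6% of all probe sets. The rule leaves out the cytochrome c1 gene cyc1 of this complex, which is counted below with further assembly factors and electron carriers. It differed by 0.11 and did not pass (limma adjusted p = 0.615). The core protein gene uqcrc1 read 9.90, 9.86 and 9.62 in controls, 10.56, 10.55 and 10.63 in severe embryos, 9.82 on the normal array and 10.69 on the mild array. The mild array was as high as the severe ones and the normal array lay among the controls. The difference of 0.79 (SE 0.13) amounts to 1.73-fold (limma adjusted p = 0.00196). A second core protein gene, uqcrc2a, rose by 0.73 (SE 0.19, limma adjusted p = 0.0141), although averaging it with a second probe set near background gave -0.20 with no call. Its paralog uqcrc2b differed by 0.034 (95% interval -0.25 to 0.32). The difference between the paralogs was not tested.

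The Rieske iron-sulfur protein gene uqcrfs1, which carries electrons inside complex III, rose by 0.37 (SE 0.12, limma adjusted p = 0.0327), a call lost in 8 of 19 alternatives. The small subunit gene uqcrb went the other way. It read 10.67, 10.61 and 11.07 in controls, 9.99, 10.17 and 10.32 in severe embryos, 10.93 on the normal and 10.73 on the mild array. Only the 3 severe arrays were below the controls. Its fall was 1.53-fold (log2 -0.62, SE 0.16, limma adjusted p = 0.0153) and was not called without severe 1 or with median centring. The hinge protein gene uqcrh, at -0.17, did not pass (limma adjusted p = 0.41).

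Complex IV, cytochrome c oxidase, had only falls among its calls when all arrays were used. Of 11 tested nuclear subunit genes, 5 fell, 0 rose and 6 did not pass, with a median of -0.20. These are 45.5% lower and 0% higher, beside 17.6% and 21.0% of all probe sets. Without control 3, severe 1 or severe 2, 3 fell, as they did with median centring or without the trend in the variance model. In these settings 14.4% to 16.6% of all probe sets were called lower. With replicates 1 and 2 of control and severe only, 5 fell and 2 rose, beside 20.5% and 27.7% of all probe sets. The median was -0.103 without control 3, -0.0996 without severe 1 and -0.367 without severe 3. The gene cox7c read 12.29, 12.27 and 12.59 in controls, 10.97, 11.46 and 11.59 in severe embryos, 12.55 on the normal and 12.10 on the mild array. The severe arrays were low and the mild array lay between them and the controls. It fell 2.06-fold (log2 -1.04, SE 0.18, limma adjusted p = 0.00199).

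The gene cox7a2l, whose product links complexes III and IV, read 10.81, 10.78 and 11.24 in controls, 9.92, 10.04 and 10.14 in severe embryos, 11.08 on the normal and 10.39 on the mild array. It too had its lowest values on the severe arrays, a 1.88-fold fall (log2 -0.91, SE 0.16, limma adjusted p = 0.00204). The small subunit gene cox6c fell by 0.60 (SE 0.13, limma adjusted p = 0.00623). The small subunit genes cox7b and cox6b2 also fell by 0.60 each (limma adjusted p = 0.0283 and 0.0365), and these calls were lost in 5 and 6 of 19 alternatives, among them those without control 3, severe 1 or severe 2. The 6 genes that did not pass, which include both cox5a genes, lay between -0.20 and 0.25, with cox6a1 at -0.13.

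The level of complex IV differed between arrays of 1 group. Its per-array median, relative to the control mean, was -0.49, -0.31 and 0.069 in severe 1, 2 and 3 and -0.12, -0.18 and 0.30 in controls 1, 2 and 3, so severe 3 lay above 2 controls. The normal array stood at 0.29 and the mild array at 0.12. The median over 73 cytosolic ribosomal protein genes ranked the arrays in a similar order, at -0.84, -0.56 and -0.16 in severe embryos, -0.15, -0.22 and 0.38 in controls, 0.42 on the normal and 0.077 on the mild array. Severe 3 and control 3 were thus the highest of their groups in both lists, and the part this plays in the result was not tested. They were also the highest of their groups in complex V, where severe medians were 0.18, 0.13 and 0.20 and control medians -0.090, -0.080 and 0.12, and in complex I.

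**Figure D3:**
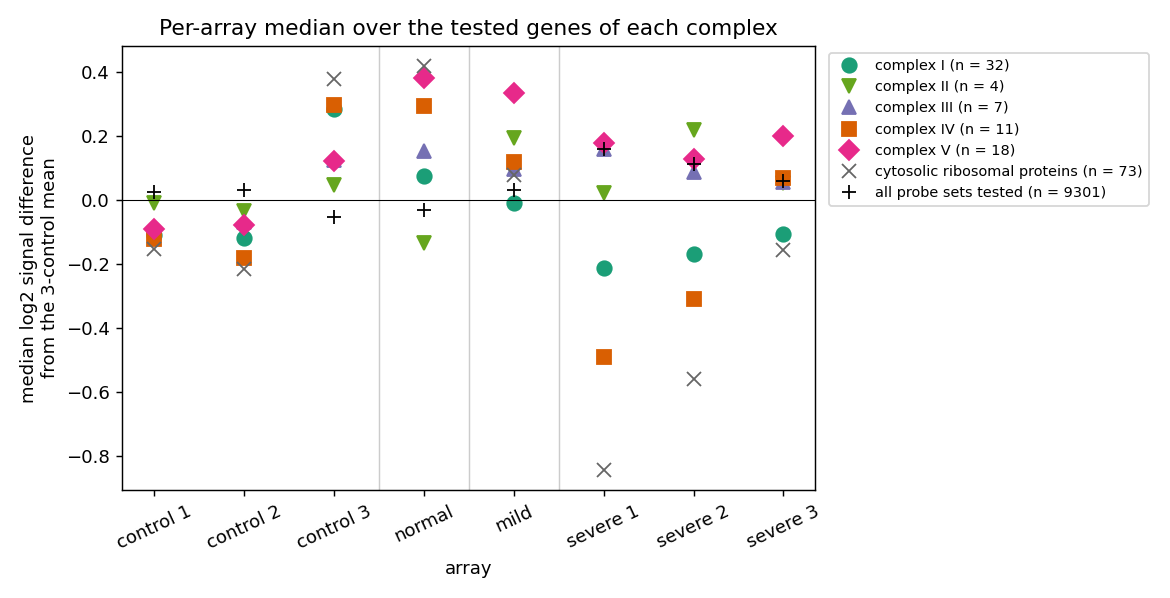
Median log2 signal difference from the 3-control mean over the tested genes of each complex, per array, with the same median over cytosolic ribosomal protein genes and over all probe sets tested. Complex IV and the ribosomal protein genes are lowest on severe 1 and 2. Complex V is above 0 on all 5 MO arrays and on control 3 (0.12). The median over all probe sets is also above 0 on severe 1, 2 and 3 (0.16, 0.11 and 0.060) and on the mild array (0.030).

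Complex V, the ATP synthase, had a median of 0.23, beside 0.11 for all probe sets, and 3 rises and 1 fall among 18 tested genes. These are 16.7% and 5.56% of its genes, both below the 21.0% and 17.6% of all probe sets. The fall was atp5md, a small membrane subunit tied to the pairing of the enzyme into dimers. It read 8.95, 8.99 and 9.36 in controls, 7.29, 7.13 and 6.99 in severe embryos, 9.13 on the normal and 7.41 on the mild array. The severe and mild arrays lay far below the controls and the normal array, a 3.90-fold fall (log2 -1.96, SE 0.21, limma adjusted p = 0.000227). It kept its call in all 19 alternatives.

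The rotor subunit gene atp5f1c read 10.09, 9.93 and 10.20 in controls, 11.11, 11.16 and 11.13 in severe embryos, 10.55 on the normal and 10.91 on the mild array. All 5 MO arrays were above all controls, and severe embryos were 2.09-fold above controls (difference 1.06, SE 0.12, limma adjusted p = 0.000326). The membrane subunit gene atp5mea read 9.54, 9.37 and 9.11 in controls, 10.20, 10.26 and 10.64 in severe embryos, 10.39 on the normal and 10.59 on the mild array. Here, too, the 5 MO arrays were above the controls, with the normal array among the severe ones (severe log2 1.02, SE 0.17, limma adjusted p = 0.00199). These were the only 2 of the 11 rises that were still called with scaling on hybridisation controls.

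The third rise was atp5l, for another membrane subunit at the dimer interface, by 0.61 (SE 0.14, limma adjusted p = 0.00928), a call lost when it was averaged with its second, dim probe set. None of the 3 tested genes of the proton-carrying ring passed. The differences were 0.46 for atp5mc1 and 0.42 for atp5mc3b (limma adjusted p = 0.0725 and 0.0553), with all severe arrays above all controls, and -0.065 for atp5mc3a (limma adjusted p = 0.697), with overlapping groups. The catalytic beta subunit gene atp5f1b, at 0.19 (limma adjusted p = 0.373), and the inhibitor genes atp5if1a (-0.43) and atp5if1b (0.30) did not pass. The membrane subunit gene atp5mj had a 95% interval of -0.47 to 0.47.

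Assembly factors went both ways, with 2 rises and 1 fall among 8 tested. These are 25% and 12.5%, beside 21.0% and 17.6% of all probe sets. The gene sdhaf4, whose product helps mature the flavin subunit of complex II, read 7.86, 7.96 and 8.46 in controls, 6.37, 6.73 and 6.67 in severe embryos, 8.02 on the normal and 7.12 on the mild array. All severe arrays and the mild array were below the controls, and the severe fall was 2.83-fold (log2 -1.50, SE 0.25, limma adjusted p = 0.00194). The gene sdhaf2, whose product helps attach that flavin, rose by 0.63 (SE 0.22, limma adjusted p = 0.0455), a call lost in 9 of 19 alternatives. The complex I factor ndufaf5 rose by 0.88 (SE 0.26, limma adjusted p = 0.0247), which was lost without control 2, severe 1 or severe 2 and under scaling on hybridisation controls. Another complex I factor, ndufaf1, was at -0.78 just short of the threshold (limma adjusted p = 0.0507) and was called lower in 8 of 18 alternatives, and ndufaf4, ndufaf6 and ndufaf8 differed by 0.28, 0.33 and 0.27 without passing.

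Markers of some embryo layers moved with the severe subtype. The log2 of the summed linear signal of 9 enveloping layer markers was 12.5 to 13.5 on the severe arrays, 15.4 to 15.9 in controls, 13.6 on the mild and 15.4 on the normal array. That of 6 yolk syncytial layer markers was 10.4 to 11.4 in severe embryos and 12.5 to 13.5 in controls, and that of 5 germ cell markers was 12.7 to 13.0 and 12.1 to 12.2. Such sums are set by the brightest genes, and single markers went against them: the yolk layer marker mxtx2 was higher on every severe array than on any control, and the germ cell marker ddx4 lower. Of the enveloping layer markers, all 9 lay above background in all controls and 5 in all severe arrays, and of the yolk layer markers 5 and 3. The part of these in the respiratory chain values was not tested. In whole embryos fewer cells of a type and less RNA per cell cannot be told apart.

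The mild array had calls in complexes I, III and V and none in complexes II and IV or among the assembly factors. It was compared with the same 3 controls, so the values are given beside those of severe embryos and not as a separate support. Of 80 tested genes, 7 fell and 6 rose, or 8.75% and 7.50%, against 8.78% and 4.69% of all probe sets (limma, assuming that the lone array varies like the replicated groups). The falls were ndufv1 (mild -3.67, severe -3.14), ndufs6 (-1.84, -2.29), ndufa2 (-1.77, -1.62), ndufa5 (-1.67, -2.25), ndufa11 (-1.50, -1.24) and ndufv2 (-1.23, -1.20) of complex I and atp5md (-1.69, -1.96) of complex V. The rises were atp5mea (mild 1.25, severe 1.02), uqcrc2a (0.93, 0.73), atp5l (0.92, 0.61), uqcrc1 (0.89, 0.79), atp5f1c (0.84, 1.06) and ndufa9a (0.83, 0.56). Of 11 complex IV genes 0 passed, and their median was 0.12. The number of mild rises was 2 without control 1 or without control 2, 10 without severe 3 and 0 under scaling on hybridisation controls. In these settings 2.05%, 1.70%, 7.84% and 0.323% of all probe sets were called higher.

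**Figure D4:**
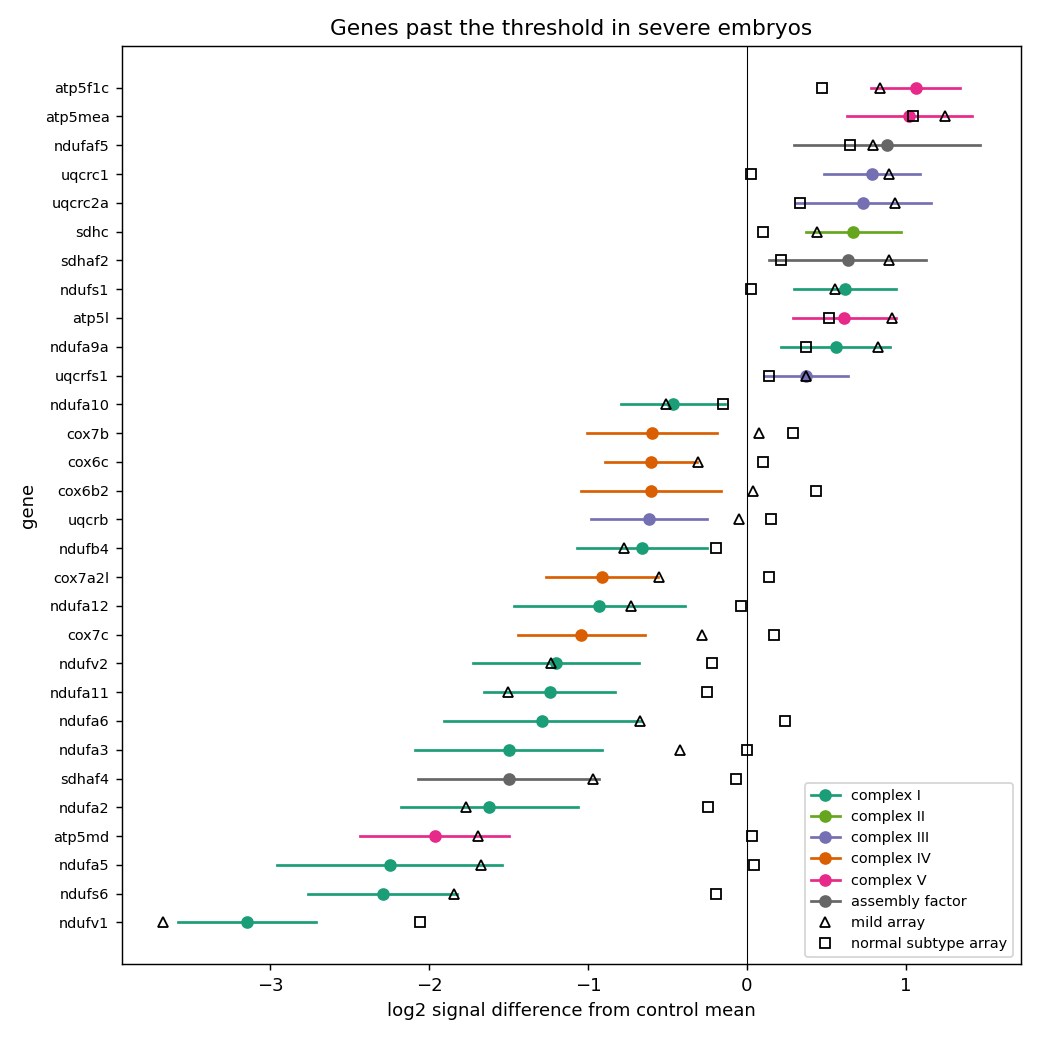
Log2 signal difference from the control mean for the 30 genes past the threshold in severe embryos. Filled circles with lines are severe estimates with 95% intervals, coloured by complex, open triangles are the mild array and open squares the normal array. For ndufv1 all 3 markers lie below -2, while for the complex IV genes the normal array lies above 0.

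On the normal array none of the 80 genes passed (limma, 6 with an unadjusted p under 0.05), and over all probe sets 0.0430% were called lower and 0.00% higher. The value furthest from the controls was again ndufv1, at -2.05 (SE 0.27, 95% interval -2.67 to -1.44). It just missed the threshold (limma adjusted p = 0.0517) and passed in 7 of 17 alternatives. Next in size were atp5mea at 1.04 and atp5meb at 1.02, both for the same membrane subunit, with limma adjusted p of 0.325 for atp5mea. Of the 18 complex V genes, 12 read higher on the normal array than on all 3 controls and 1 read lower than all of them, without a call. Over all tested members these counts were 34 and 11 of 80, and over all probe sets 29.0% read higher and 32.9% lower. The median differences were 0.38 for complex V, 0.29 for complex IV, 0.15 for complex III and 0.075 for complex I. For complex II the median was -0.13, and for all probe sets -0.033.

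Severe and normal-subtype MO embryos were then compared directly, since both had received the MO. Of 80 genes 15 were lower and 2 higher in severe embryos, or 18.8% and 2.5%, against 10.4% and 11.3% of all probe sets (limma, with 1 normal array). Complex I had 7 of 32 lower, complex IV 5 of 11, complexes III and V 1 each and the assembly factors 1. The differences were -2.10 for ndufs6 (limma adjusted p = 0.00513), -2.0 for atp5md (0.00588), -2.29 for ndufa5 (0.0122), -1.21 for cox7c (0.0143) and -1.05 for cox7a2l (0.0152). The 2 genes higher in severe embryos were uqcrc1 (0.76, limma adjusted p = 0.0246) and atp5f1c (0.59, limma adjusted p = 0.0423). For atp5mea the 2 subtypes differed by -0.022 (95% interval -0.58 to 0.53), and for ndufv1 severe embryos were 1.09 lower than the normal array (limma adjusted p = 0.0253). The count of lower genes was 9 without severe 1, beside 6.88% of all probe sets called lower. It was 6 without severe 2, beside 7.31%, and 5 under scaling on hybridisation controls, beside 5.04%. For a list of 80 genes, counts of 6 and 5 lie close to these array-wide shares. Leaving out both control 3 and severe 3 gave 33 lower genes, beside 21.1%.

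Between severe and mild embryos 0 of 80 genes passed (limma, 5 with an unadjusted p under 0.05), as was the case for 0 of all 9301 probe sets (0.00%). The median severe minus mild difference was -0.49 for complex IV, -0.26 for complex V, -0.19 for complex III and -0.16 for complex I. For complex II it was 0.13, and for all probe sets 0.088. With replicates 1 and 2 of control and severe only, 23 members were called lower in severe than in mild embryos and 2 higher. In that setting 9.99% of all probe sets were lower and 18.4% higher. Over all tested probe sets severe 3 correlated more closely with the mild array (Spearman 0.983) than with severe 1 (0.959) or severe 2 (0.966). The part this plays in the severe against mild counts was not tested.

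Genes that work with the respiratory chain were looked up in lists. Of 22 tested further assembly factors and electron carriers, 8 rose and 5 fell in severe embryos, or 36.4% and 22.7% beside 21.0% and 17.6% of all probe sets. Without control 1, 5 rose, beside 16.5% of all probe sets. Cytochrome c gene cycsb fell by 1.41 (limma adjusted p = 0.000208), and atpaf1, for a chaperone of the ATP synthase head, fell by 1.78 (limma adjusted p = 0.000239). The copper chaperone gene cox17, which serves complex IV, rose by 1.47 (limma adjusted p = 0.000215) and kept its call in all 18 alternatives run for these lists. Of 8 coenzyme Q genes 5 rose and 0 fell, with a median of 0.81. The rises are 62.5%, against 21.0% of all probe sets. Those with the smallest p (limma) were coq3 (1.55), pdss1 (1.17) and coq9 (0.93), and coq10a rose by 1.54 (limma adjusted p = 0.0135). Without severe 1 or without severe 2, 3 rose, beside 14.5% and 14.6% of all probe sets. Under scaling on hybridisation controls 1 coenzyme Q gene and 3 of the assembly factors were still called higher, beside 5.10% of all probe sets.

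Of 16 tested citric acid cycle and pyruvate dehydrogenase genes 5 rose and 1 fell. The rises are 31.2% and the fall 6.25%, against 21.0% and 17.6% of all probe sets. The rises numbered 2 without control 1 or without control 2 and 3 without severe 1 or without severe 2. The shares of all probe sets called higher in these settings were 16.5%, 16.7%, 14.5% and 14.6%. The cycle enzymes mdh2 and fh rose by 0.88 and 0.97 (limma adjusted p = 0.000849 and 0.00121), and pdhb, for the pyruvate dehydrogenase E1 beta subunit, fell by 1.00 (limma adjusted p = 0.0103). Of 18 glycolysis genes 8 rose and 2 fell, or 44.4% and 11.1% beside 21.0% and 17.6% of all probe sets, with a median of 0.57. The kinase gene pgk1 rose by 2.00 (limma adjusted p = 0.00129) and gpia by 0.89 (limma adjusted p = 0.00164). Hexokinase gene hk1 changed by -3.55 (limma adjusted p = 0.00133), with 1 of 3 severe arrays above background, so its size is uncertain. Under scaling on hybridisation controls the glycolysis counts were 2 and 2 and the citric acid cycle counts 1 and 1. With that scaling 5.10% of all probe sets were called higher and 20.5% lower.

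Among 9 tested genes that control mitochondrial gene expression, 4 fell and 1 rose. Without severe 3, 2 rose, beside 25.8% of all probe sets. The falls are 44.4%, against 17.6% of all probe sets. The transcription factor gene nrf1, a known regulator of respiratory chain genes in mammals, read 10.68 ± 0.01 in controls and 9.98 ± 0.07 in severe embryos (SD, n = 3 each; log2 -0.69, limma adjusted p = 0.00228). The nrf1 difference from controls was -1.04 on the single mild array. On the single normal array it was -0.68, close to the severe value, although it did not pass there. The normal array read below all controls for nrf1, as it did for 32.9% of all probe sets, so this 1 array cannot show low nrf1 in that subtype. The gene gabpb2a and the zinc finger gene yy1a fell by 1.81 and 1.58 (limma adjusted p = 0.000475 and 0.000115). The remaining fall was gabpa, at -0.61 (limma adjusted p = 0.00461). The rise was yy1b, the paralog of yy1a, by 0.71 (limma adjusted p = 0.003). The genes nrf1, gabpb2a and yy1a kept their calls in all 18 alternatives. Of 4 tested carrier and channel genes 0 passed (limma). Among them vdac1 differed by 0.20, slc25a3b by -0.21 and vdac3 by 0.12.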

How the data were processed

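The deposited table holds log2 values. Per the submitters' processing notes the authors made them with MAS5, whose version is not given in the sources used here. On the linear scale, every array's mean without its lowest and highest 2% was 500. MAS5 summarises the probes of a probe set after subtracting mismatch signal. No detection calls were used here. Gene names came from the platform annotation, all 85 members matched RefSeq genes (assembly GRCz12tu, names only), on 25 chromosomes, and updated symbols gave the same members. Sequences were not analysed here.

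After leaving out 115 control probe sets, those with a mean at or above the 40th percentile were kept (9301). Group means of all 8 arrays were fitted in limma 3.58.1 under R 4.3.3, by lmFit and then eBayes with a trend. That left 4 residual degrees of freedom, and p-values were adjusted by Benjamini-Hochberg over all 9301 at 0.05. Background was the 95th percentile of 17 Tag probe sets, a bound chosen after the data were seen. The steps were tested on simulated data.

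Members and lists were chosen with earlier results of these data known. Named genes were, per complex, the 5 smallest p in severe embryos, calls against the complex's majority, the largest p and the brightest member, the 5 smallest p of called members in each other comparison, and 3 per related list. Other genes named here, such as the remaining called members, ndufs7, ndufs8a, cyc1, atp5f1b, atp5meb, the inhibitors, gabpa and yy1b, were chosen after their values were seen. The plan placed sdhaf genes in complex II, but they are counted with the assembly factors here. The actin and GAPDH control probe sets were dim, so no check of RNA quality was made from them. Figures used matplotlib 3.10.9. Alternatives covered a pseudocount of 32, normalization, the filter, the variance model, the probe set per gene, membership, arrays left out and a replicate block. Those for the related lists were added after the data were seen.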

Additional observations from a re-analysis of the deposited data

Results flagged for a closer look

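Severe embryos were set directly against the single array of the normal subtype, with the spread taken from the replicated groups because the normal array has none of its own. Among the 80 tested respiratory chain and ATP synthase genes, 15 were lower and 2 higher in severe embryos (limma, adjusted p under 0.05), beside 10.4% lower and 11.3% higher over all probe sets. Without severe 2 the counts were 6 and 0, beside 7.31% lower and 4.70% higher over all probe sets. Under scaling on hybridisation controls they were 5 and 0, beside 5.04% and 1.30%. No group had the 4 arrays needed to look for outlying samples. Over all tested probe sets controls 1 and 2 correlated at 0.993 (Spearman) and each of them with control 3 at 0.971.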

How the results depend on the processing

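The number of arrays limits the precision, and dim signals carry the most noise. The falls in severe embryos stayed within 1.5 times of 19 in every alternative (15 to 22), and the falls on the mild array within that of 7 except with replicates 1 and 2 of control and severe only (11). Leaving out each replicate in turn gave 7 to 13 severe rises, 2 to 10 mild rises and 0 to 1 falls on the normal array. It gave 6 to 21 lower and 0 to 5 higher genes in severe against normal embryos, and a complex I median from -0.21 to 0.07. Over all probe sets the shares ranged from 14.5% to 25.8% for severe rises and from 1.70% to 7.84% for mild rises. Between severe and normal embryos they ranged from 6.88% to 15.2% lower and from 4.63% to 20.5% higher. Scaling on hybridisation controls gave 2 severe rises and 0 mild rises, beside 5.10% and 0.323% of all probe sets. In severe against normal embryos it gave 5 lower and 0 higher genes, beside 5.04% and 1.30%. Its severe medians were -0.39, -0.21, -0.25, -0.48 and -0.06 for complexes I to V. This scaling gave 22 falls in severe and 9 in mild embryos, beside 20.5% and 10.4%. Quantile normalization gave 5 falls and 9 rises in mild embryos, beside 8.25% and 6.14%. Replicates 1 and 2 of both groups only gave 21 severe rises and 27 mild rises, beside 27.7% and 14.3% of all probe sets. They gave 17 rises and 1 fall on the normal array, beside 4.18% and 7.58%. In severe against normal embryos 33 genes were lower and 8 higher, beside 21.1% and 30.4%. Against mild embryos 23 were lower and 2 higher, beside 9.99% and 18.4%. The severe medians were 0.15 for complex II and 0.14 for complex III. On the normal array 1 gene, ndufv1, was called lower with the pseudocount, with median centring, with the 60th percentile filter, with 1 probe set per gene and with the mean of a gene's probe sets. The genes higher in severe than in normal embryos numbered 0 with median centring or without the trend and 1 with no filter. With the mean of a gene's probe sets the complex III median was -0.14 and uqcrc2a turned to -0.20, where its second probe set lay under the filter. Over 1365 values of single named genes, 1283 kept their direction and side of the threshold, 50 lost a call, 31 gained one and 1 turned. For the other changes the cause was not tested.

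With the replicate number as a block on control and severe arrays only, 22 members fell and 14 rose. In that fit 20.3% of all probe sets were called lower and 27.2% higher. The deviations of same-numbered control and severe arrays correlated at 0.34, -0.07 and 0.34. Control 2 deviated most like severe 1 (0.38), while control 3 and severe 1 correlated at -0.45. The numbers were not taken as pairs in the main fit, and whether same-numbered arrays share an effect was not tested. The mild and normal arrays carry no number, so no block could be fitted for them.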

Other observations

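One subunit encoded by mitochondrial DNA was on the array under the symbol COX1, the catalytic subunit of complex IV, which the rule on symbols leaves out. It was singled out after its values were seen. Its 3 probe sets read between log2 14.05 and 15.57 over the 8 arrays, near the top of the scale, and differed by -0.16, 0.06 and 0.11 between severe and control embryos. None of the 3 passed in that comparison (limma adjusted p = 0.36, 0.761 and 0.631). Against the normal array, 1 of the 3 was lower in severe embryos (-0.62, limma adjusted p = 0.0469). The 11 tested nuclear subunit genes of the same complex had a median severe minus normal difference of -0.67, against 0.11 for all probe sets. The difference between the nuclear and mitochondrial genes was not tested.

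Of 58 tested mitochondrial ribosomal protein genes 12 were higher and 12 lower in severe embryos, or 20.7% each way, near the 21.0% and 17.6% of all probe sets. Their median was 0.033.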
